A study of Mus musculus with 3 samples.

Results

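Twist1 ChIP-seq peaks were examined around 10 genes that encode Twist1 itself, its relatives and its partners, or factors of the epithelial to mesenchymal transition (EMT): Twist1, Twist2, Tcf3, Tcf4, Tcf12, Hand1, Hand2, Zeb1, Zeb2 and Snai2. A peak was assigned to a gene when the deposited list named that gene on either side of the peak at a distance of at most 50 kb. Of 67468 peaks in all, 32 met this rule. They were 2 of 10965 peaks in endocardial cushions, 30 of 48965 peaks in limb buds and 0 of 7538 peaks in peripheral nerve sheath tumor cells.

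The peaks came from chromatin pulled down with an anti-Twist1 antibody and sequenced. The ECC sample was endocardial cushion tissue of the atrioventricular canal from mouse embryos at E12.5, and the limb bud sample was forelimb buds at E10.5, and the labels name no added allele or agent for either. The PNST sample was a cultured line of mouse tumor cells from the peripheral nerve sheath. The labels give the strain FVB/N for all 3, and each sample was 1 pool, of embryos from more than 1 litter or of more than 1 plate of cells. There were no replicates, so no difference between tissues could be tested, and the error given below is counting error only. Whole cushions and whole limb buds hold several cell types, and since the lists hold no expression values, neither the cell types nor the expression of the 10 genes could be checked against markers.

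Twist1 is a basic helix-loop-helix factor that binds DNA as a pair, either with itself or with a widely expressed E-protein. The E-proteins are encoded by Tcf3 (E2A), Tcf4 (E2-2) and Tcf12 (HEB), and such pairs bind the E-box (CANNTG, where N is any base). Twist2 (Dermo1) is the closest relative of Twist1, and Hand1 and Hand2 are related factors of the developing heart and limb that compete for the same partners. Zeb1 and Zeb2 are zinc finger repressors and Snai2 (Slug) is a Snail repressor. All 3 bind E-boxes, repress epithelial genes such as E-cadherin, and act in EMT, through which valve precursor cells leave the endocardium and tumor cells become motile.

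The headers of the peak lists gave 3149934 tags (mapped reads, after removal of duplicates at the same position) for ECCs, against 14893391 for limb buds and 11823220 for the PNST cells. The fewest tags in any called peak were 5, 8 and 7, respectively. As RPM (tags in a peak per 1000000 filtered tags) this floor was 1.59 for ECCs, 0.537 for limb buds and 0.592 for the PNST cells, so a peak had to be denser to be called in ECCs than in the other tissues. The deposited limb bud list holds many more peaks than the limb bud set described with the study. Its 14893391 tags are also far more than the reads given there for limb buds, which were the fewest of any tissue. The list was used whole. Every count, RPM or floor that sets limb buds beside the other tissues rests on this longer list and its header.

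The sequences under the peaks are shown first, because much of what the peaks had in common lay there. Peaks beside Twist1, Tcf3 and Tcf12 held the same element. The Twist1 peak lies 8254 bp upstream of the 5′ end of the gene, the Tcf3 peak 8982 bp upstream of Tcf3, and the Tcf12 peak 29006 bp beyond the 3′ end of Tcf12, all in intergenic sequence. Sequences are from mm9, from 5′ to 3′, on the + strand for Twist1 and Tcf3 and on the − strand for Tcf12, and capitals mark runs of at least 20 bases shared with another peak of the set.
Twist1, limb bud, chr12:34634199-34634326: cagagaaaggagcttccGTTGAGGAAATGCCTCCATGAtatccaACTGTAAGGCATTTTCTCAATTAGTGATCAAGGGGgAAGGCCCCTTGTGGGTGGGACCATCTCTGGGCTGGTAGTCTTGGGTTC
Tcf3, limb bud, chr10:79905292-79905438: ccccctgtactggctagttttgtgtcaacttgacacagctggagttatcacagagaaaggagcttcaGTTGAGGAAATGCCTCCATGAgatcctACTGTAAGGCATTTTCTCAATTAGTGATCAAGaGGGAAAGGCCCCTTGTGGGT
Tcf12, limb bud, chr9:71663008-71663173: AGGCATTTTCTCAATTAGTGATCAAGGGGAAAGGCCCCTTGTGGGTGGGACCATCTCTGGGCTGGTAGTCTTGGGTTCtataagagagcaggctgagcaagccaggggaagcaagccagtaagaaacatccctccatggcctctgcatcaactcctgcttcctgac
The longest exact run was 48 bases between Twist1 and Tcf12, 32 between Twist1 and Tcf3 and 26 between Tcf3 and Tcf12. The E-box CAACTG, read on either strand, lay within 50 bp of the summit in the Twist1 and Tcf3 peaks, but at different places of the element. The Tcf3 peak also held CAGCTG within 50 bp of its summit, and the Tcf12 peak held no E-box. In mm9, the median 50-base stretch of the peak occurred 12 times for Twist1 and Tcf3 and 108 times for Tcf12.

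A set of 3 limb bud peaks beside Tcf3, Tcf12 and Snai2 shared another element, which runs through most of the Tcf3 and Tcf12 peaks. The Tcf3 peak is intergenic, 46170 bp upstream of the gene. The Tcf12 peak is in intron 6 of Tcf12, and the Snai2 peak is intergenic, 39122 bp upstream. All 3 are shown on the + strand, with capitals as above.
Tcf3, limb bud, chr10:79942516-79942647: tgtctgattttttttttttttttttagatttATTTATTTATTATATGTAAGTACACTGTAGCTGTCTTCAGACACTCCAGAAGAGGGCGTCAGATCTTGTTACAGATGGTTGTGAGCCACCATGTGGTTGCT
Tcf12, limb bud, chr9:71771451-71771602: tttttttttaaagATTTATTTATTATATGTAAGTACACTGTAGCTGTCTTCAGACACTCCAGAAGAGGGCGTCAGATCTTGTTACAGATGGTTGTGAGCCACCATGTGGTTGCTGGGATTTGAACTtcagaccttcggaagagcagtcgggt
Snai2, limb bud, chr16:14666743-14666865: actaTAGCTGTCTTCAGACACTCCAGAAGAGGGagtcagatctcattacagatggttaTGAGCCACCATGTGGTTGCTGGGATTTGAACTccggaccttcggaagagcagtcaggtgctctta
The Tcf3 and Tcf12 peaks shared an exact run of 101 bases, and the Snai2 peak shared 29 bases with Tcf3 and 32 with Tcf12. Each of the 3 peaks held the E-boxes CATCTG and CACATG in the same order. The element is not particular to these genes. In mm9, the median 50-base stretch of the peak occurred 710 times for Tcf3, 695 times for Tcf12 and 11 times for Snai2.

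The remaining sequences belong to peaks on which single genes turn, and here capitals mark E-boxes. The ECC peak of Tcf12 is shown as 1 of only 2 ECC peaks. The limb bud peak of Snai2 is the one with the highest score there and holds CATATG. The peak of Hand1 is the closest to a gene among those outside gene bodies. That of Zeb2 has the smallest share of 50-base stretches found more than once in mm9 among the limb bud peaks of members. With stretches of 32 bases its share was 85.7%, above the 60% of a limb bud peak of Tcf12. All peaks shown here are intergenic and on the + strand.
Tcf12, ECC, chr9:71976692-71976903: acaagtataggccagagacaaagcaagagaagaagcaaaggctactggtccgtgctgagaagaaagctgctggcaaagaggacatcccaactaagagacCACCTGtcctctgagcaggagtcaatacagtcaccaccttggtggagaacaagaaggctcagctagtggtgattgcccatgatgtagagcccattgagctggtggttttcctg
Snai2, limb bud, chr16:14717581-14717717: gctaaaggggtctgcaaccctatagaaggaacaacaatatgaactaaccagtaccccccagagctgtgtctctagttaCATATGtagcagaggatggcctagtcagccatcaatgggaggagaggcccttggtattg
Hand1, limb bud, chr11:57639188-57639346: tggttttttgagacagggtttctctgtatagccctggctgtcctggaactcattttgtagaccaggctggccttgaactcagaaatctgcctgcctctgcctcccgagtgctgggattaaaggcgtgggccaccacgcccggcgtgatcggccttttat
Zeb2, limb bud, chr2:44791857-44791999: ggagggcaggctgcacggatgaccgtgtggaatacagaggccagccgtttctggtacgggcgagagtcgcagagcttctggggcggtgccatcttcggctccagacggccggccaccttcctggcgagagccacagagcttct
The Tcf12 peak in ECCs aligned over 211 bases to the coding sequence of Rpl7a, a ribosomal protein gene located elsewhere, with 95.7% identity. The Hand1 and Zeb2 peaks held no E-box. The peak of Twist2, called in both ECCs and limb buds, is a tandem repeat of a unit of 22 bases without an E-box.
Twist2, unit of the limb bud peak at chr1:93678584-93678763, + strand: ctaggctcagtggagggaggat
The limb bud peak held 8.18 copies of this unit, with 100% identity from 1 copy to the next.

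The element shared by Twist1, Tcf3 and Tcf12 was also present in a limb bud peak beside Tcf4, which shared runs of 43 bases with Twist1, 32 with Tcf3 and 30 with Tcf12 and held CAACTG 42 bp from its summit. A further set of 4 peaks beside Twist1, Tcf4, Tcf12 and Zeb1 shared exact runs of up to 58 bases. In all, 13 of the 30 limb bud peaks, beside 6 genes, shared such a run with another of the 30 at a different place. The share that other sets of limb bud peaks would give was not computed, and repeated sequence was common over the whole limb bud list, as given below.

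Of the 10 genes, 9 had a peak within 50 kb in limb buds (all but Hand2), 2 in ECCs (Twist2 and Tcf12) and 0 in PNST cells. A gene is named only where it flanks a peak of some tissue, and most peaks were from limb buds. Of 14619 genes named in the lists, 87.5% had a peak by the same rule in limb buds, 36.3% in ECCs and 23.6% in PNST cells. The limb bud count was therefore near the share of all genes, and the counts in the other tissues were below it. No member had a peak in all 3 tissues, against 1538 of the 14619 genes, a share at which about 1 of 10 would have one. Hand2 alone had a peak in none, against 4.72% of all genes. With only 10 genes and 1 sample a tissue, these shares are descriptions.

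**Figure D1:**
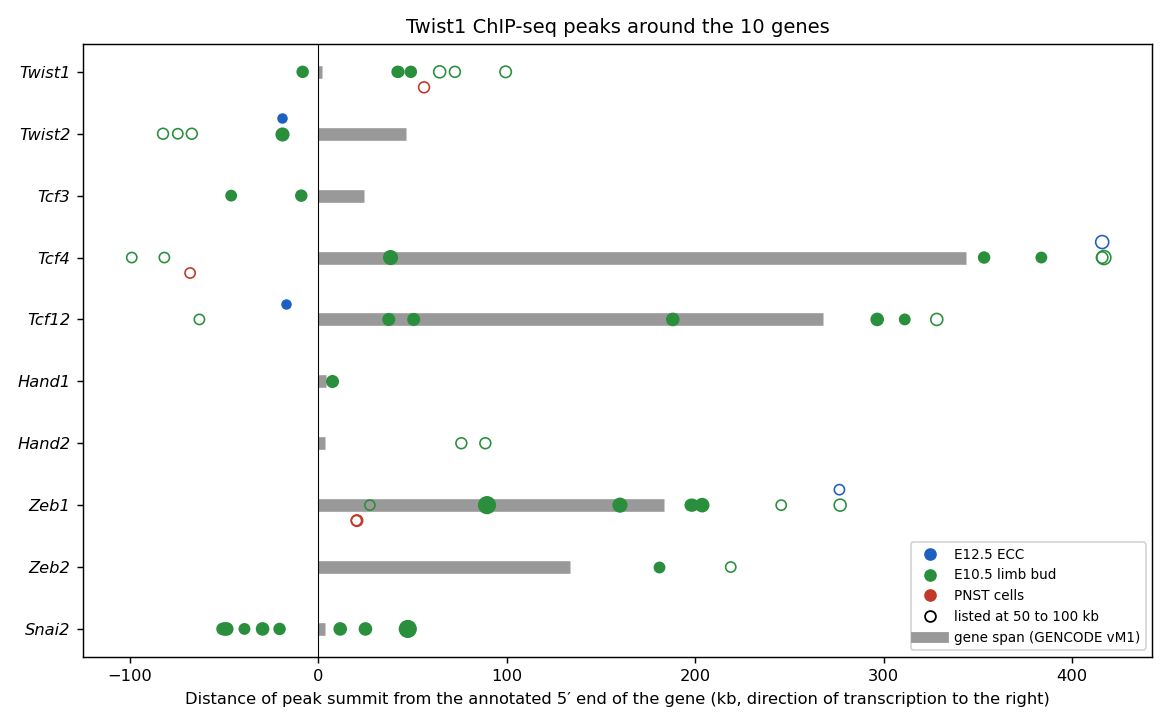
Position of each peak summit from the annotated 5′ end of the gene in kb (x axis), by gene (rows). Filled circles are peaks listed within 50 kb of a member, open circles are rows listed at 50 to 100 kb, colors are tissues, circle area grows with the tags in the peak, and gray bars are gene spans. No filled PNST circle appears, the 2 filled ECC circles lie upstream of Twist2 and Tcf12, and the Snai2 row holds 8 limb bud peaks.

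Twist1, the gene of the immunoprecipitated factor, had 4 limb bud peaks and no ECC or PNST peak within 50 kb. They held 9, 9, 8 and 9 tags, or 0.604, 0.604, 0.537 and 0.604 RPM. In tags, all 4 stood at or just above the fewest of any limb bud peak (8), against a median of 10 in the limb bud list. The first lay 8254 bp upstream of the gene and had the highest score of the 4 (68.68, where the score is 10 times the −log10 of the p-value given by MACS), with a fold enrichment of 18.27 over local background. The other 3 lay 42125 to 49156 bp from the 5′ end, beyond the 3′ end of this short gene, at chr12:34684585-34684736, chr12:34685194-34685329 and chr12:34691604-34691740, with fold enrichments of 11.20, 11.45 and 15.66. The medians of the limb bud list were 64.06 for the score and 14.37 for the fold enrichment, so the first of the 4 was above both. Only the first and second of the 4 held an E-box, CAACTG and CACGTG.

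Farther out, PNST peaks did lie beside Twist1. The nearest, with 9 tags, was listed at 54547 bp. Another, listed at 114571 bp with 8 tags, overlapped a limb bud peak of 9 tags and a score of 116.05 in an intron of Hdac9, the neighboring histone deacetylase gene. That limb bud peak was 69 bp long, and G and C made up 4.35% of its bases. This was the only PNST row naming a member, out of 11 at any distance, that a limb bud peak overlapped. No ECC row named Twist1 at any distance.

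By the deposited distances, Twist2 had the only place within 50 kb of a member where peaks of different tissues overlapped. The ECC peak (chr1:93678563-93678741) held 6 tags and the limb bud peak (chr1:93678584-93678763) held 12 tags, with summits 19378 and 19386 bp upstream of the gene. These were 1.90 RPM in ECCs (95% Poisson interval 0.699 to 4.15) and 0.806 in limb buds (0.416 to 1.41), intervals that overlap. The scores were 74.35 and 73.49, and the fold enrichments 28.01 and 12.89. The longest exact run common to both sequences was 173 bases of the tandem repeat shown above. This run is longer than the overlap of the peaks in position, since units of the repeat match at shifted places. An ECC peak overlapped 1 of the 30 limb bud peaks of members and 7.61% of the limb bud list, and a PNST peak overlapped 0 of them and 2.61% of the list. From the ECC side, 1 of 2 member peaks was overlapped by limb bud peaks, against 33.1% of the ECC list. The nearest PNST row of Twist2 was listed at 178868 bp.

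Among the E-protein genes, by the deposited distances, Tcf3 had 2 limb bud peaks, Tcf4 had 3 and Tcf12 had 5, and Tcf12 alone had an ECC peak. The symbols Tcf3 and Tcf4 stood for the E-proteins, since their rows lay on chromosomes 10 and 18 beside those genes. Both of these Tcf3 peaks were weak, with 9 and 8 tags and scores of 50.73 and 56.29, and both belonged to the shared sequences above. Within its annotated span plus 50 kb on either side, Tcf3 had 6 limb bud peaks and 1 ECC peak, several of them listed under other genes. The highest score among these limb bud peaks was 82.21, with 10 tags (chr10:79840791-79840884).

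The limb bud peak of Tcf4 with the most tags (14 tags, 0.940 RPM, interval 0.514 to 1.58) was in intron 3 of the gene, at chr18:69542063-69542265. Its score was 96.29 and its fold enrichment of 20.88 was the highest of the 30 limb bud peaks. It held no E-box and consisted of a repeat with a period of 2 bases. The other Tcf4 peaks lay past the 3′ end, with 9 tags (chr18:69857042-69857151, with CATATG 17 bp from the summit) and 8 tags. At 76876 bp, outside the limit, an ECC peak of 13 tags overlapped a limb bud peak of 10 tags. The nearest PNST row, with 8 tags, was listed at 68380 bp.

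Tcf12 had the ECC peak of 6 tags shown above, 17191 bp upstream of the gene, with 1.90 RPM (interval 0.699 to 4.15) and a fold enrichment of 37.60. The nearest limb bud peak was 45664 bp away. In limb buds, the 5 peaks held 8, 11, 11, 10 and 10 tags, with scores from 55.35 to 81.57. Inside the gene were 3 of them, with 1 in intron 6 and the others in intron 3. The one at chr9:71908882-71909017 in intron 3 also covered an exon of Rpl15-ps2, a pseudogene copy of a ribosomal protein gene, with 100% identity. The ECC peak, on the Rpl7a-like sequence, and this limb bud peak were at different places.

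Hand1 had 1 limb bud peak, with 10 tags (0.671 RPM, interval 0.322 to 1.23), a score of 67.48 and a fold enrichment of 14.88. It lay 2954 bp past the 3′ end of the gene. Hand2, required in limb buds and heart, had no peak within 50 kb in any tissue. Its nearest limb bud row was listed at 72983 bp with 9 tags, its nearest PNST row at 146589 bp with 10 tags and its nearest ECC row at 280818 bp with 5 tags. That ECC row overlapped a limb bud row listed at 280941 bp.

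Zeb1 had 5 limb bud peaks, including the one with the highest score of all 30. It was in intron 1, at chr18:5681317-5681572, with 21 tags (1.41 RPM, interval 0.873 to 2.16), a score of 149.43 and a fold enrichment of 18. This was the only member peak in limb buds with a p-value of 1e-10 or smaller, a level that 9.01% of all limb bud peaks reached. Zeb1 was thus the 1 member with such a peak in limb buds, against 16.9% of all genes. No member had one in ECCs (4.98% of all genes) or in PNST cells (2.46%). It held no E-box and was a tandem repeat with a period of 35 bases. The peak in intron 3, at chr18:5751829-5752002, held 14 tags and CACCTG on both sides of its summit. The remaining 3 lay past the 3′ end, with 10, 10 and 13 tags, and the first and second of these were tandem repeats with a period of 15 bases that shared a run of 121 bases.

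PNST peaks were also present inside Zeb1, but the deposited distances placed them outside the limit. They lay in intron 1 at chr18:5612122-5612274 (8 tags, 0.677 RPM, interval 0.292 to 1.33) and chr18:5612312-5612501 (10 tags, 0.846 RPM, interval 0.406 to 1.56), 20314 and 20541 bp from the annotated 5′ end. The list gave 92919 and 92729 bp. Nearest to them, a limb bud peak in the same intron with 8 tags (chr18:5619232-5619374) was 6731 bp away and listed at 85809 bp. By position, therefore, Zeb1 had peaks in intron 1 in both limb buds and PNST cells, at different places. The nearest ECC row, with 8 tags, was listed at 95274 bp.

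Zeb2 had 1 limb bud peak by the rule, at the floor of the list with 8 tags, 47252 bp past the 3′ end. A closer limb bud peak of 9 tags, 3083 bp upstream of the 5′ end (chr2:44975918-44976065, score 62.99), was listed under other genes in the deposited columns. The nearest ECC row of Zeb2, with 7 tags, was listed at 121503 bp, and no PNST row named it.

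By the deposited distances, Snai2 had the most peaks of the 10 genes, with 8 in limb buds. Counted within the annotated gene span plus 50 kb on either side, Zeb1 also had 8 limb bud peaks. From the farthest upstream to the farthest downstream the Snai2 peaks held 11, 11, 8, 11, 9, 11, 11 and 21 tags, and all were intergenic. The peak of 21 tags (chr16:14753390-14753728) had the lowest fold enrichment of the 8, at 6.94, over a length of 339 bp. The highest score, 86.50, belonged to the 11-tag peak 11681 bp from the 5′ end whose sequence is shown above. The nearest ECC row was listed at 107073 bp, with 5 tags, and overlapped a limb bud row of 8 tags. No PNST row named Snai2.

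**Figure D2:**
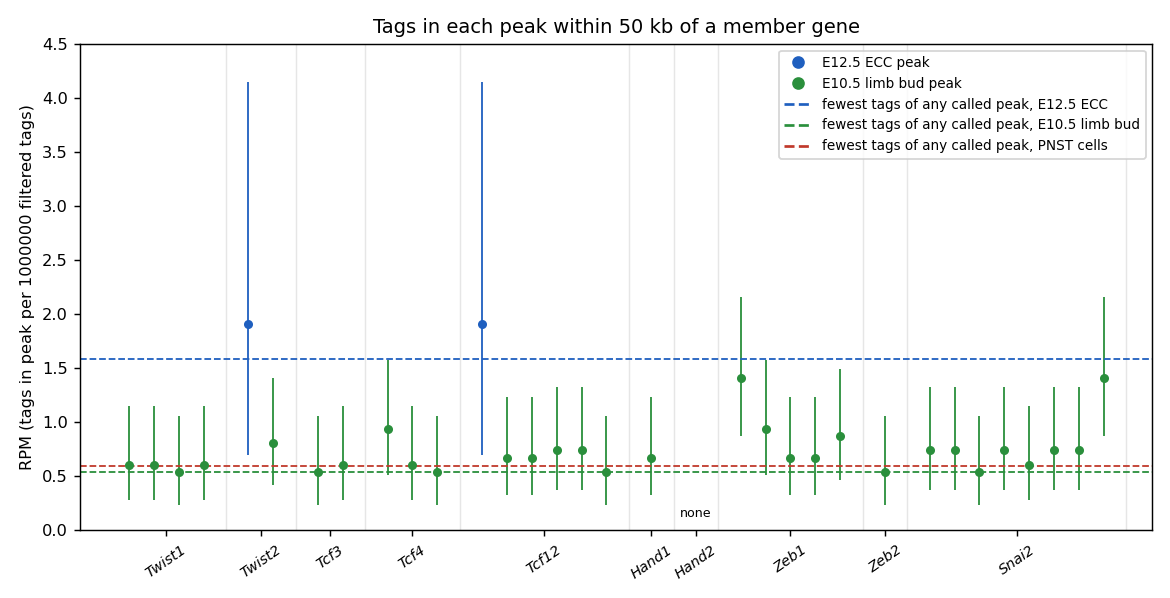
RPM of each of the 32 peaks (tags in the peak per 1000000 filtered tags, y axis), by gene (x axis), with 95% Poisson intervals. Dashed lines mark the weakest called peak of each library, and all 30 limb bud peaks lie below the ECC line at 1.59.

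In none of the 30 limb bud peaks did the RPM reach the floor of the ECC list, 1.59, which 4.99% of all limb bud peaks reached. The floor of the PNST list, 0.592, was reached by 24 of the 30, against 69.9% of all limb bud peaks. The limb bud peak of Twist2, at 0.806 RPM, was itself under the ECC floor, and an ECC peak of 1.90 RPM overlapped it. Over the whole limb bud list, an ECC peak overlapped 7.61% of peaks. Whether the floors bear on the counts by tissue was not tested. The plot of RPM by gene shows the ECC peaks with wider intervals, since each rests on 6 tags.

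The 30 limb bud peaks were like the limb bud list as a whole in median strength. They held a median of 10 tags (range 8 to 21), as in the whole list (10). The median fold enrichment was 15.27 (6.94 to 20.88) against 14.37, the median score 63.4 against 64.06, and the median length 152 bp against 143 bp. Fewer member peaks were in the upper range. A MACS p-value of 1e-10 or smaller was reached by 1 of the 30, against 9.01% of the list. The ECC floor of 1.59 RPM was reached by 0 of the 30, against 4.99%. Introns of Tcf4, Tcf12 and Zeb1, which are long genes, held 6 of the 30 peaks, against 29.3% of limb bud peaks with the summit in a protein-coding gene, and 24 lay outside such genes.

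An E-box was present in 18 of the 30 limb bud peaks, or 60% (95% exact binomial interval 40.6 to 77.3), against 56% of all limb bud peaks on the assembled chromosomes. Within 50 bp of the summit the share was 46.7% against 38.5%. The density was 5.22 E-boxes per kb in the member peaks and 5.61 in the list. CATATG was present in 3 peaks (Tcf4, Tcf12 and Snai2) against 9.48% of the list. CATCTG was present in 4 against 12.9%, CACCTG in 3 against 16% and CAGCTG in 4 against 7.89%, each counted on both strands. No member peak held a pair of E-boxes 5 bases apart, an arrangement found in 0.581% of the list. The interval of the share with an E-box includes that of the list.

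Repeated sequence was a common feature of these peaks. For each peak, the 50-mers, the length of a read, were looked up in the whole of mm9. The median limb bud peak of a member had 94.7% of its 50-mers at more than 1 place, and the median 50-mer of the median peak occurred 12 times. In 28 of the 30 peaks at least 50% of the 50-mers were repeated, against 93.5% of the limb bud list, and in 13 all were, against 58.4%. The exceptions under 50% were the peak of Zeb2 (33%) and the farthest upstream peak of Snai2 (48.1%). The median 50-mer of the peak occurred at 1000 or more places in 4 peaks: a pair beside Twist1, the one in intron 3 of Zeb1, and 1 upstream of Snai2. Of the 2 ECC peaks, the Twist2 peak had 95.4% and the Tcf12 peak 18.4% repeated 50-mers. Reads of 50 bp that lie wholly in repeated sequence can map to more than 1 place, and how such reads were placed is not given in the sources used here. Its part in the peaks was not tested.

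**Figure D3:**
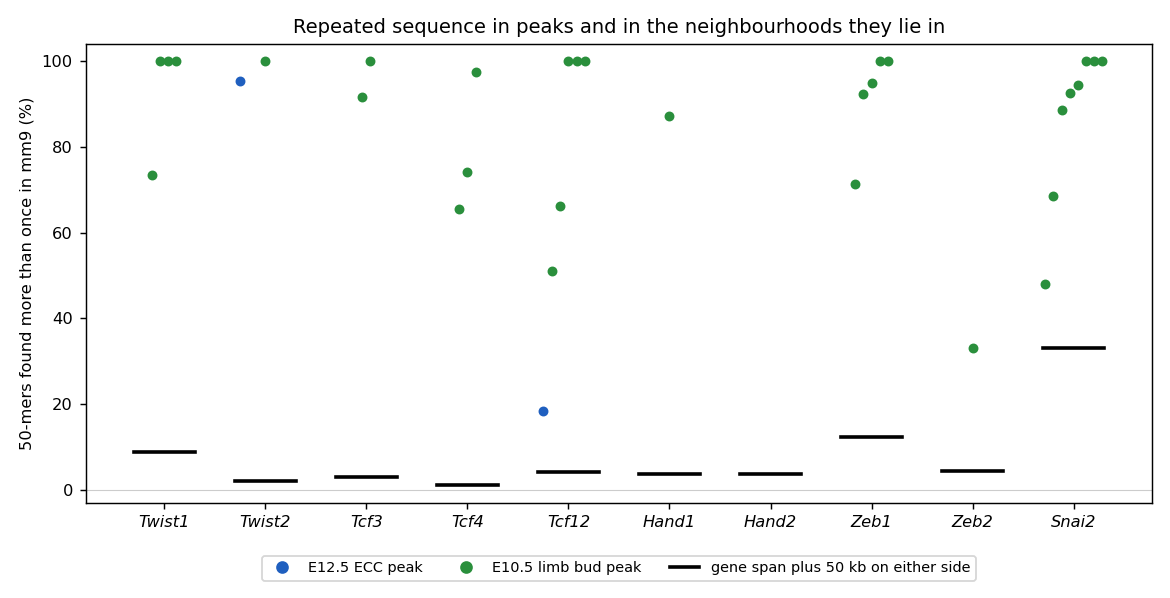
Percent of 50-mers found more than once in mm9 (y axis) for each of the 32 peaks (points, colored by tissue) and for the gene span plus 50 kb on either side (black bars), by gene (x axis). Each peak lies above the bar of its own gene, with Snai2 peaks from 48.1% upward over a neighborhood at 33%.

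The neighborhoods of the genes held far less repeated sequence than the peaks. Over the gene span plus 50 kb on either side, the share of repeated 50-mers was 33% for Snai2, 12.4% for Zeb1 and 8.86% for Twist1. It was 4.33% for Zeb2, 4.06% for Tcf12, 3.60% for Hand1, 3.59% for Hand2 and 3.07% for Tcf3, and the lowest shares were 2.11% for Twist2 and 1.22% for Tcf4.

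Since the genes differ in length, peaks were also counted by summit within these neighborhoods, 2012.8 kb in all. There were 38 limb bud peaks, or 1.89 per 100 kb (95% Poisson interval 1.34 to 2.59), against 1.80 over the assembled genome. The ECC list had 3 peaks there, or 0.149 per 100 kb (0.0307 to 0.436) against 0.401, and the PNST list had 2, or 0.0994 (0.0120 to 0.359) against 0.273. At the genome rate, 36.1, 8.08 and 5.50 peaks would lie in this length. Each of the 3 intervals includes the genome rate of its tissue. By this count, 9 of the 10 genes had a limb bud peak, 3 an ECC peak (Twist2, Tcf3 and Tcf12) and 1 a PNST peak (Zeb1), against 84.2%, 40.1% and 25% of all protein-coding genes. The third ECC peak in this count was a 6-tag peak at chr10:79831099-79831200, 41110 bp past the 3′ end of Tcf3, which overlapped a limb bud peak of 9 tags (chr10:79831101-79831209).

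By gene, the limb bud rate per 100 kb was highest for Snai2 (7.73), followed by Tcf3 (4.83), Twist1 (3.92) and Zeb1 (2.82). It was 1.36 for Tcf12, 0.960 for Hand1, 0.856 for Zeb2, 0.682 for Twist2, 0.676 for Tcf4 and 0 for Hand2. Neighbors in this order had overlapping Poisson intervals. Across the 10 genes the rate moved with the share of repeated 50-mers, with Pearson r = 0.823 and Spearman rho = 0.636. Without Snai2, the values over 9 genes were 0.466 and 0.5, so the Pearson value rests largely on that gene. The genes share 1 library, and these values are descriptions.

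**Figure D4:**
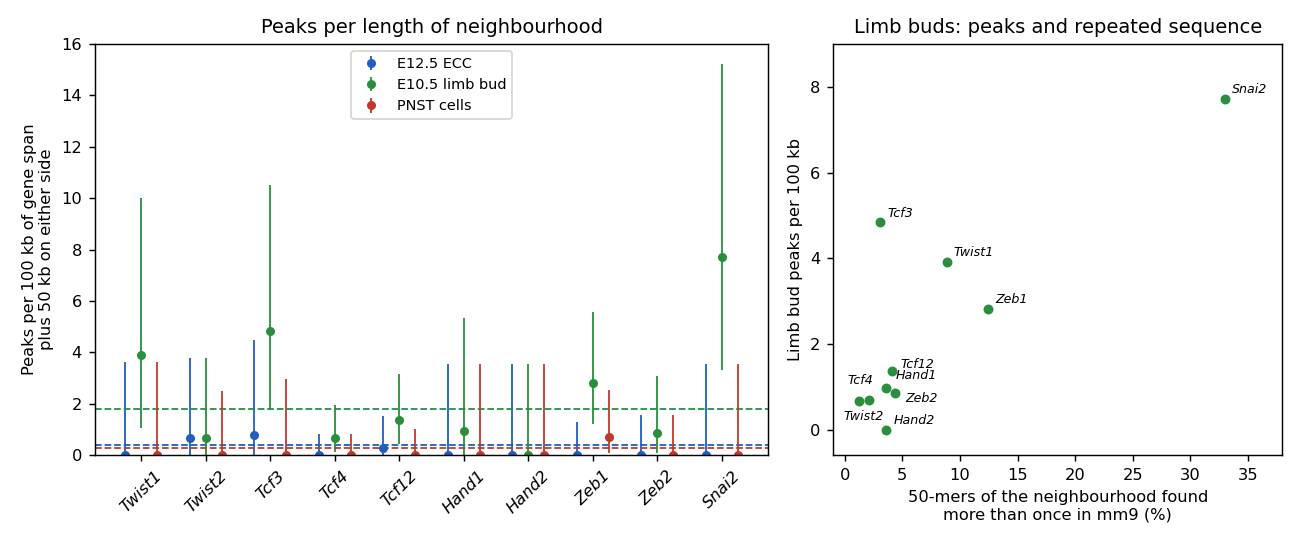
Left, peaks per 100 kb of gene span plus 50 kb on either side (y axis) by gene and tissue, with 95% Poisson intervals and dashed lines at the rate over the assembled genome. Right, the limb bud rate (y axis) against the percent of 50-mers in the neighborhood found more than once in mm9 (x axis), where Snai2 stands apart at 7.73 peaks per 100 kb and 33%.

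Other genes of the pathway were counted by the same rule. Of the relatives of Twist and Hand, 10 of 16 were named in the lists, and 10 had a peak in limb buds, 2 in ECCs and 0 in PNST cells. Of the Id genes, whose products bind E-proteins and keep them from DNA, 3 of 4 were named, with a peak for 2, 0 and 1, respectively. Of 16 other EMT transcription factors, 14 were named, with a peak for 10, 3 and 3. Of 19 epithelial and mesenchymal effector genes of EMT, 13 were named, with a peak for 12, 3 and 6. Over all 4 lists, 85% of 40 named genes had a peak in limb buds, 20% in ECCs and 25% in PNST cells, beside 87.5%, 36.3% and 23.6% of all named genes. These shares leave out genes that flank no peak, since only genes beside a peak are named. Of all 55 genes of the 4 lists, 34 had a peak in limb buds, 8 in ECCs and 10 in PNST cells.

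Of the 40 named genes of these lists, 2 had a peak in all 3 tissues, a smaller share than the 1538 of 14619 among all genes. Snai1, the Snail repressor most like Snai2, had a peak of 5 tags at 14709 bp in ECCs, 4 limb bud peaks with up to 10 tags, and a peak of 10 tags at 16620 bp in PNST cells. Cdh1, which encodes E-cadherin and is repressed by Snai1, Snai2, Zeb1, Zeb2 and Twist1, had a peak of 15 tags at 9529 bp in ECCs. In limb buds it had 2 peaks, with up to 27 tags and the nearer at 8781 bp, and in PNST cells a peak of 8 tags at 3742 bp.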

How the data were processed

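Libraries were read from 1 end for 50 bp by the authors, who name Bowtie and Eland v2 as mapping tools (mm9) and MACS 1.4.2 as the peak caller for each of the 3 samples (p-value cut-off 1e-05, band width 300 bp, at most 1 tag kept at each position). The deposited lists give for each peak the count of tags, not normalized for depth, and the score, 10 times the −log10 of the p-value. The deposited fold enrichment is a ratio to local background. The headers name no control file, while the methods name FVB/N genomic DNA. Handling of reads that map to several places is not given in the sources used here.

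Here, tags were scaled to RPM by the filtered tags of the list header (ECCs 3149934, limb buds 14893391, PNST cells 11823220), with exact 95% Poisson intervals. Shares carry exact binomial intervals. Both cover counting error only, and tags are not independent molecules. Without replicates no test was made. Genes and distances were taken from the deposited columns. Of 32 distances of member peaks, 18 ended exactly at the lower edge of an exon of the gene in GENCODE vM1, so they are not in general distances to a TSS, and positions from that annotation are given beside them. Peaks counted as shared had 5% or more of their length overlapped. Repeated 50-mers were counted on both strands of mm9, exact runs of at least 20 bases were compared between member peaks, and peaks were aligned to transcripts with BLAST 2.17.0. A tandem repeat matched itself, shifted by up to 60 bases, at 80% or more of positions. Repeat families were not annotated here. Other work was done in Python 3.11.15 with scipy 1.17.1, and the overlap, E-box and repeat code was tested on simulated data.

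All 10 members were named, with the peak of most tags in each tissue, shared peaks and, where there was no peak, the nearest row beyond. Of other lists, genes with a peak in all 3 tissues were named. Other peaks, and those found by annotated position, were named after their values were seen. The members and lists were chosen with earlier results of these data known. Alternatives were other p-value, fold and distance limits, the annotated gene span, the ECC floor, other overlaps, summit windows and, chosen after seeing the data, less repeated peaks.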

Additional observations from a re-analysis of the deposited data

How the results depend on the processing

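The counts near the members depended strongly on the limits set. With only peaks of p 1e-10 or smaller, ECCs had 0 peaks and 0 genes, limb buds had 1 peak beside 1 gene (Zeb1), and the count of limb bud peaks overlapped by an ECC peak fell from 1 to 0. A fold enrichment of at least 20 left 1 limb bud peak and 1 gene (Tcf4). Within 10 kb, ECCs had 0 peaks and 0 genes and limb buds had 6 peaks, and within 100 kb ECCs had 4 peaks beside 4 genes, limb buds had 49 peaks and PNST cells had 4 peaks beside 3 genes. By annotated gene span plus 50 kb, PNST cells had 2 peaks beside 1 gene (Zeb1). With at least the RPM of the weakest ECC peak, limb buds had 0 peaks and 0 genes. With under 50% of 50-mers repeated, an alternative chosen after seeing the data, 1 ECC peak and 1 gene and 2 limb bud peaks and 2 genes were left. In these settings the count changed because fewer or more peaks met the limit. The other 29 values, among them all other overlap rules and the share with an E-box near the summit, stayed within 1.5 times the count or within the interval of the share. Some of these could not move and show no stability. A count of 0 for PNST cells, or for limb bud peaks overlapped by them, stays 0 under any stricter limit. Every ECC peak meets the ECC floor by definition.

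No paired analysis was possible because each tissue has 1 sample and no result comes from a test. No replicate was left out for the same reason. By the headers of the deposited lists, though not by the reads given with the study, the ECC library was the shallowest. No ECC peak of under 5 tags (1.59 RPM) was called.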
